A study of Caenorhabditis elegans with 2 samples.

Results

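Chromosome III carried 763 of the 2767 CEC-7 peaks that chromatin immunoprecipitation and sequencing (ChIP-seq) gave in adult Caenorhabditis elegans, a nematode. They are all the peaks that the deposited list places on that chromosome, so their choice used position and no measured value. The worms were whole hermaphrodites of the genotype fem-2(b245)III, labelled as young adults with a germline and grown at 20 degrees Celsius, and the growth protocol describes the harvested animals as gravid. A rabbit polyclonal antibody to CEC-7, the product of Y37D8A.11, was used on extract fixed with 1% formaldehyde for 10 min. The series has 1 ChIP library and 1 input DNA library of the same strain, stage and temperature, and peaks of the ChIP library alone were analysed here. Both libraries are labelled as replicate 2, and another replicate was not analysed here, so the values below carry no spread between libraries. The chromatin of all tissues of the worm is mixed, and sequencing depth is unknown.

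Chromodomains, after which the cec genes are named, are protein folds that in many proteins bind methylated lysines on histone tails. In worms, genes transcribed in the germline carry methylated histones over their transcribed length, and autosomes hold most germline-expressed genes. The gene-dense middle of each worm autosome holds many conserved genes of basic cell functions, whereas the ends are richer in repeats and in expanded gene families. The fem-2 gene, of which all the worms carried a temperature-sensitive mutant allele, encodes a phosphatase of the sex determination pathway, and it lies on chromosome III, as does the cec-7 gene itself.

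Both of these genes lay at peaks, as did 37.2% of the chromosome's protein-coding genes by the rule given below. The cec-7 gene was wholly covered by a peak with a score of 244.47, above the chromosome's median score of 147. That peak was not particular to cec-7, since mrg-1, spcs-2 and enu-3.5 also lay under it or within 500 bp. The fem-2 gene had 1 peak with a score of 74.48, which covered 52.1% of its length. The score is the authors' own value for each peak, on a scale the file does not state, and it serves here only to rank peaks within the list. Here and below, a gene was counted as under a peak where the peak, extended by 500 bp at both ends, overlapped the gene. This tolerance allows for an offset between the build of the peaks (WormBase WS220) and that of the gene table (WBcel235). Cover, the share of a gene's bases within peaks, was computed from peaks as deposited.

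Peaks were denser on chromosome III than on the other autosomes. III had 55.4 peaks per Mb (exact Poisson 95% interval 51.5 to 59.4), against 28.9 per Mb on the other 4 autosomes together (27.6 to 30.2, 1987 peaks), and the X chromosome carried 17 peaks. The ratio was 1.92 (exact 95% interval 1.76 to 2.08, two-sided exact binomial p = 1.51e-47). Set against I alone, the next densest autosome, the ratio was 1.2 (1.08 to 1.33, two-sided exact binomial p = 0.000535). Relative to protein-coding genes the ratio of III to the other 4 autosomes was 2.12. Peaks lie in groups and are not independent, so these intervals, which cover counting error only, are too narrow and the p-values too small.

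Peaks on III were also somewhat stronger and wider than those of the other 4 autosomes together, values that were not tested. The median score was 147 on III (quartiles 84.3 and 289), against 118 on the other 4 autosomes (74.9 and 230). Median width was 2119 bp on III and 1935 bp on the other 4 autosomes. Of the III peaks, 78 scored 500 or more, 10.2% (exact 95% interval 8.16 to 12.6%), against 133 on the other 4 autosomes, 6.69% (5.63 to 7.88%). Peaks of 5 kb or more made up 10.2% on III and 6.49% on the other 4 autosomes.

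Of 3 segments of equal length along the chromosome, the middle one had the most peaks. It held 299 peaks, 65.1 per Mb (exact Poisson 95% interval 57.9 to 72.9), against 464 in the outer segments, 50.5 per Mb (46 to 55.3). The ratio of middle to outer was 1.29 (exact 95% interval 1.11 to 1.49). The middle segment is also denser in genes, with 231 protein-coding genes per Mb against 172 in the outer segments. Per 1000 protein-coding genes it had 281 peaks, against 294 in the outer segments, and that ratio was 0.957 (0.825 to 1.11). The middle segment was thus denser in peaks per base, while per gene the interval of the ratio included 1.

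Peaks of the middle segment were stronger and wider. Their median score was 202 (quartiles 109 and 373), against 128 in the outer segments (74.5 and 230), and their median width was 2813 bp against 1794 bp. Peaks covered 21.4% of the middle segment and 11.8% of the outer segments. Of the 190 peaks with the highest scores, 291.59 or more, 57.4% lay in the middle segment (exact 95% interval 50 to 64.5%). Of the 191 with the lowest, 84.2 or less, 24.1% did (18.2 to 30.8%). The left segment had 209 peaks, 45.5 per Mb (exact Poisson 95% interval 39.5 to 52.1), with a median score of 113. The right segment had 255, 55.5 per Mb (48.9 to 62.7), with a median score of 138. The density interval of the right segment overlapped that of the middle segment, and that of the left segment did not.

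With the chromosome divided into 10 equal bins, density was highest in the fourth bin and did not rise steadily toward the middle from either end. The first 3 bins had between 37 and 45 peaks per Mb, and the fourth bin had 91.4 (exact Poisson 95% interval 76.2 to 109). The density was 62.4 in the fifth bin and 53 in the sixth. It stood at 61.7 in the seventh and the eighth, 55.9 in the ninth and 47.2 in the last. In the fourth bin 202 of 352 protein-coding genes (57.4%) were under a peak, beside 37.2% over the whole chromosome, and 30.1% of the bases lay within peaks. In the second bin 31 of 197 genes (15.7%) were under a peak, and 8.58% of the bases were covered.

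**Figure D1:**
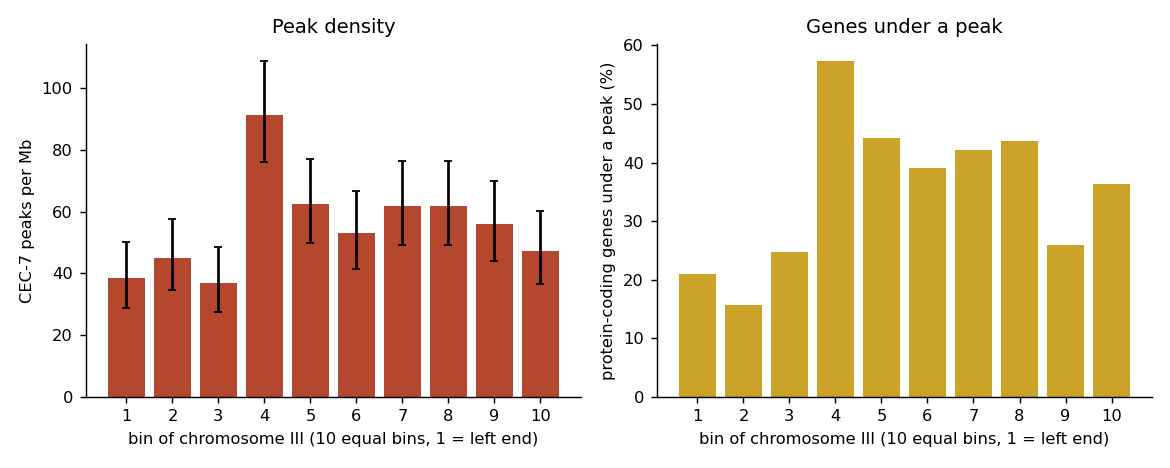
CEC-7 peaks along chromosome III in 10 equal bins, numbered from the left end: left panel, peaks per Mb with exact Poisson 95% intervals; right panel, percent of protein-coding genes under a peak. The fourth bin is the highest in both panels, with 91.4 peaks per Mb and 57.4% of genes.

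The 20 peaks with the highest score lay over genes, and none of them overlapped a gene of the tissue-restricted lists described further on. They scored 903.72 or more and were 3742 to 9988 bp wide, and 12 lay in the middle segment, 5 in the left and 3 in the right. As deposited they overlapped 48 protein-coding genes, of which 41 lay within the peak for 50% or more of their length. Genes took up a median of 97.1% of each of these peaks. Of the 48 genes, 11 (22.9%) belonged to a list of cellular machinery or germline genes, 0 to a tissue-restricted list and 37 to no list. Over all 2642 protein-coding genes of III, 9.12% are on lists of the first kind and 10.2% on lists of the second. Genes given below with the same score share a peak.

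The strongest peak, III 7223628 to 7233615 (WS220, score 1951.83, 9988 bp), spanned several short genes. It wholly covered adr-2, which encodes an adenosine deaminase that edits double-stranded RNA, with R151.8 and R151.10, and it covered 88.6% of hsp-75, a mitochondrial HSP90-type chaperone gene. It also reached over 54% of ndus-8, which encodes a subunit of respiratory complex I. The third strongest, III 6433034 to 6442100 (score 1636.81), wholly covered vps-16, a membrane trafficking gene, and C05D11.1, and 73.2% of mel-32, which encodes serine hydroxymethyltransferase.

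Other strong peaks lay almost wholly over a single gene. The second strongest, III 10452630 to 10460490 (score 1744.51), lay over ecps-1, a homologue of a human proteasome adaptor gene, and filled it closely: 99.2% of the gene lay in the peak and 98.4% of the peak in the gene. The fourth, III 6383388 to 6389485 (score 1424.42), covered all of let-716, whose human homologue acts in ribosome assembly, and 96.1% of the peak lay in that gene. The seventh (score 1164.86) matched cid-1, a poly(U) polymerase gene, with 94.7% of the gene in the peak and 95% of the peak in the gene, and it also overlapped emb-1, a gene of the anaphase-promoting complex. Over all of III, 57 peaks matched 1 gene in this way, with 90% or more of the gene in the peak and 90% or more of the peak in the gene. They included those at emb-5, the worm SPT6 gene (score 894.99), at lin-36, a gene of the synMuv class B (739.78), at chc-1, the clathrin heavy chain gene (699.36), and at ran-2, which encodes the Ran GTPase-activating protein (544.72).

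Some of the 20 strongest peaks took up an inner stretch of a long gene. The peak at III 3417052 to 3420793 (score 1060.61) lay wholly inside golg-4, a golgin gene of 19901 bp, and covered 18.8% of it. The peak at III 1087403 to 1091352 (score 903.72) lay inside par-2, a cell polarity gene of 13688 bp, over 28.9% of its length. Other long genes were covered almost from end to end, such as set-16 (12722 bp, 98.9%), and of the 248 genes of 5 kb or more under a peak, 94 were covered to 50% or more. A single gene could also hold a row of peaks. The 45964 bp gene gcn-1, which acts in the response to translational stress, had 12 peaks that together covered 57.0% of it. The chromatin remodeller gene ssl-1 had 7 peaks over 52.7% of its length, and smc-3, a cohesin gene, had 5 over 52.5%. The sex determination gene tra-1 had 4 peaks over 28.9% of its 24312 bp. In all, 239 of the 982 genes under a peak had 2 peaks or more.

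Stronger peaks were wider: the median width was 4134.5 bp among the 190 peaks with the highest scores and 1240 bp among the 191 with the lowest. Of the 5 widest peaks, the second and the fifth widest were the strongest and the third strongest, and the others ranked lower by score. The widest peak, III 4429609 to 4439644 (10036 bp, score 635.09), ranked 55th by score and lay over C28A5.1 and C28A5.2. The third widest, III 5308741 to 5317974 (9234 bp, score 779.08), covered 94.5% of mog-3, a gene of the switch from sperm to oocytes that the splicing list holds. Of this peak, however, 72.9% lay in pqe-1 and 25.9% in mog-3. The fourth widest, III 13774124 to 13783300, lay at the right end of the chromosome over mdt-29 and pot-3 and scored 142. The weakest peak of all, III 5025517 to 5026711 (score 50.44), lay at pcf-11, a gene for mRNA 3′ end formation. It stood in the fourth bin, where peaks were densest.

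**Figure D2:**
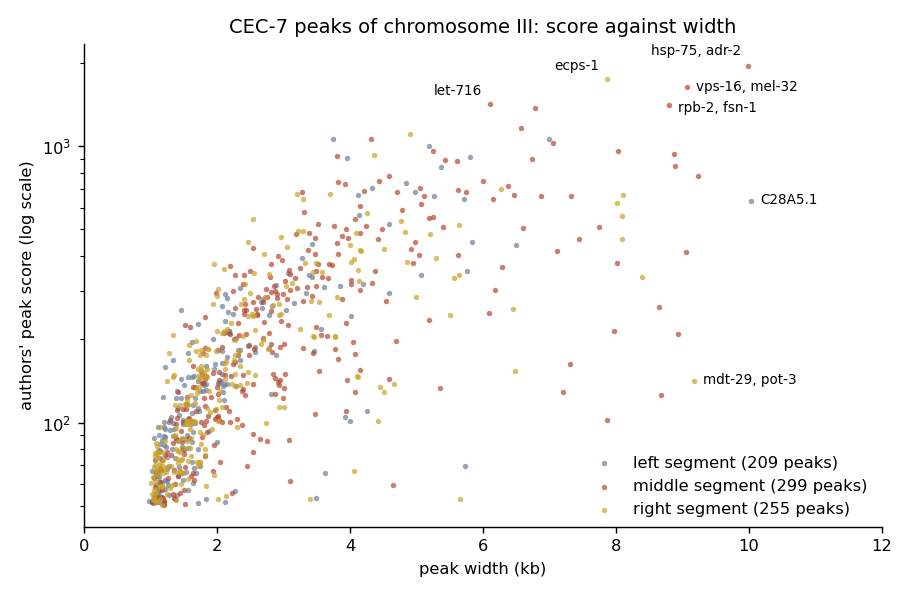
The authors' score (log scale) against width in kb for the 763 peaks of chromosome III, coloured by segment, with genes named at 7 peaks. The 2 highest scores, at hsp-75 and ecps-1, belong to peaks of 9988 and 7861 bp, while the wide peak at mdt-29 and pot-3 near the right end scored 142.

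Peaks lay in gene bodies and seldom between genes. Of the 763 midpoints, 732 fell inside a protein-coding gene, 95.9% (exact 95% interval 94.3 to 97.2%), while such genes take up 68.6% of the chromosome. Peaks covered 20.6% of the bases in genes and 2.73% of those between genes, a ratio of 7.57. On the other 4 autosomes 96.4% of midpoints lay in genes, and 10.7% of genic and 0.997% of intergenic bases were covered. The preference for gene bodies was thus a trait that III had in common with the other autosomes, and its extent was not compared by a test. More than 1 gene was within reach of many peaks: 380 peaks had 1 gene, 240 had 2, 135 had 3 or more, and 8 had none. The strongest of these 8 was III 6541369 to 6544425, with a score of 281.15.

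Around gene ends, cover was lowest just outside the gene. For the 729 genes of III that are 4 kb or longer, 9.20% of bases lay within peaks in the 0.25 kb step centred 0.375 kb outside an end. Cover was 23.1% in the step centred 1.875 kb inside the gene and 16.5% in that centred 2.875 kb outside. The gene table at hand gives no strand, so both ends of each gene were pooled, and starts cannot be told apart from ends. On the other 4 autosomes the lowest and highest values were 5.37% and 15.5%, at the same distances.

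**Figure D3:**
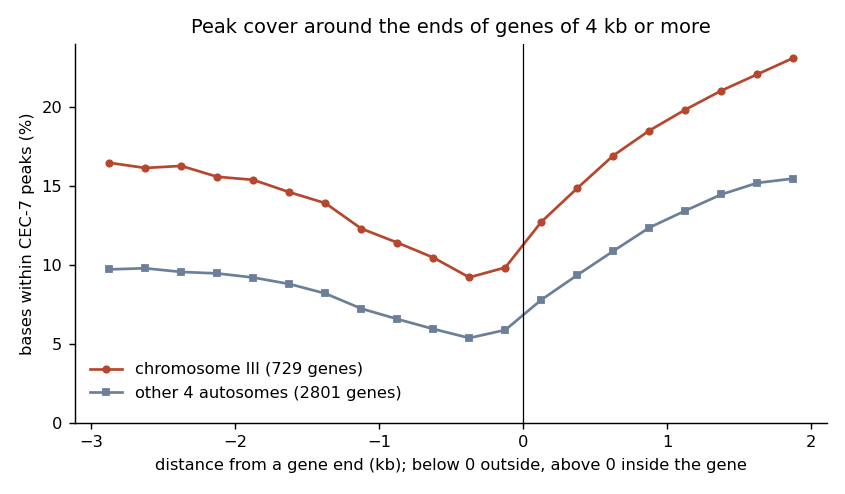
Percent of bases within CEC-7 peaks in steps of 0.25 kb from either end of protein-coding genes of 4 kb or more, on chromosome III (729 genes) and on the other 4 autosomes (2801 genes). Both curves are lowest just outside the gene, at 9.20% and 5.37%, and highest at the innermost step, at 23.1% and 15.5%.

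Of the 2642 protein-coding genes of III, 982 were under a peak, 37.2% (exact 95% interval 35.3 to 39.0%), against 17.2% of 14599 on the other 4 autosomes (16.6 to 17.8%). With 50% or more of the gene's length within peaks as the measure, the shares were 22.2% on III and 8.97% on the other 4 autosomes. Complete cover was found for 168 genes of III. Neighbouring genes often share a peak, so these genes are not independent. Genes under a peak were longer, with a median of 2704 bp, against 2085 bp for those not under one, and a longer gene is more easily reached by a peak. The share under a peak was 25.9% among genes shorter than 1 kb and 46.4% among those of 5 kb or more.

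Closely packed genes were under peaks more often than isolated ones. Of the 2308 genes with a neighbour less than 1 kb away, 40.6% were under a peak (exact 95% interval 38.6 to 42.7%). Where the nearest neighbour was 1 to 5 kb away, the share was 13.7% of 307 genes (10 to 18%). It was 2 of 27 genes, 7.41%, where no gene lay within 5 kb. A peak near closely packed genes also has more genes within its tolerance, and the share with 50% or more of their length covered was 24.5%, 6.84% and 3.70% in the same order. By segment, 45.5% of genes were under a peak in the middle segment and 31.5% in the outer segments.

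Several classes of genes without a protein product lay in peaks less often. The midpoint of the gene was in a peak for 6.12% of 147 pseudogenes (exact 95% interval 2.84 to 11.3%), against 23.8% of protein-coding genes. It was in a peak for 5 of 64 tRNA genes and 34 of 764 genes classed as other ncRNA. Higher shares were found for antisense RNA genes, with 4 of 10 (exact 95% interval 12.2 to 73.8%), and for genes of snoRNAs, which guide RNA modification and in worms often lie in introns, with 16 of 54 (29.6%, 18 to 43.6%). Both intervals include the share of protein-coding genes. Of miRNA genes 0 of 27 had the midpoint in a peak and of lncRNA genes 0 of 29, which allow shares of up to 11.1% and 10.3%.

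Genes were then grouped by role, in 30 lists made by gene name. Of the 241 genes of III on the 18 lists of cellular machinery, stress proteins and the germline, 155 were under a peak, 64.3% (exact 95% interval 57.9 to 70.4%). Of the 270 genes of III on the 12 lists of tissue-restricted genes and expanded families, 25 were, 9.26% (6.08 to 13.4%). These stand beside 37.2% of all protein-coding genes of the chromosome. By cover of 50% or more the shares were 46.5% and 2.22%, beside 22.2% of all genes. In the middle segment alone the shares under a peak were 67.6% of 111 machinery and germline genes and 14.3% of 77 restricted genes, beside 45.5% of all genes there. Among genes of 2 to 5 kb they were 73.9% of 88 and 8.99% of 89, beside 39.5% of all genes of that length. With no tolerance the share of restricted genes was 5.56%, beside 32.3% of all genes. With the 50% of peaks that scored highest the share of machinery and germline genes was 41.5%, beside 24.9% of all genes. The lists were made with earlier results of these peaks known, and no test was made of their shares.

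Genes for splicing and for the synthesis of RNA and protein had shares under a peak of 65% or more in each of 4 lists. Of 18 splicing factor genes on III, 15 were under a peak, with a median cover of 87.9%. The strongest were at rnp-4, whose product is part of the exon junction complex (score 1058.4, wholly covered), at mog-3 (779.08) and at sftb-1 (734.89). For snr-6, snr-5 and rsp-3, none was within the tolerance, and the nearest peaks were 16.4, 5.79 and 4.66 kb away. Of 15 translation factor genes 10 were under a peak, led by gcn-1, and eef-1A.1, which encodes an abundant elongation factor, had its nearest peak 2.28 kb away. Of 6 aminoacyl-tRNA synthetase genes, 5 were, led by rars-1 (960.58, wholly covered) and lars-1 (704.5). RNA polymerase and Mediator genes had 13 of 20 under a peak, led by rpb-2, which encodes the second largest subunit of RNA polymerase II (1406.86, 92.7% covered).

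Genes of the ribosome and of the proteasome stood closer to the chromosome's background of 37.2%. Of 18 cytosolic ribosomal protein genes, 7 were under a peak, 38.9% (exact 95% interval 17.3 to 64.3%), and of 21 mitochondrial ones 9 were. The median cover was 0 in both lists, and median gene length was 748 and 1004 bp, against 2315 bp for all genes of III. Among the cytosolic ones, rpl-13A was wholly covered (score 347.26) and rpl-3 to 84.2% (341.29). The gene rps-13 had no base in a peak and was counted through the tolerance alone, 0.397 kb from a peak that scored 683.68. Of 8 proteasome subunit genes, 3 were under a peak, led by rpn-2 (642.74), while pbs-6, rpn-3 and rpn-6.1 lay 0.504 to 0.940 kb from the nearest one, just outside the tolerance.

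In several other lists of machinery fewer members were covered to 50% or more than were under a peak. Of 8 genes of the nuclear pore and nuclear transport 6 were under a peak and 4 were covered to 50% or more, led by ran-2 (score 544.72). The gene npp-15 was reached by that peak through the tolerance alone, and a separate peak inside npp-15 scored 374.71. Chaperonin and prefoldin genes had 3 of 4 under a peak, led by cct-6 (620.4), and 1 covered to 50% or more. Heat shock and DNAJ genes had 8 of 10, led by hsp-75 and dnj-18 (1374.41), and 4 covered to 50% or more. Respiratory chain genes had 9 of 14 and 4, and asb-1, cox-14 and cox-17 were counted through the tolerance alone. Vacuolar ATPase genes had 2 of 4 under a peak, both covered to 50% or more.

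Genes of the cell cycle, chromosomes and germline were mostly under peaks as well. Of 33 cell cycle and spindle genes 24 were, led by apc-11 (score 911.79), where 9.79% of the gene lay in the peak, by par-2, and by par-3, another polarity gene (881.07, 67.5% covered). DNA replication factors had 8 of 13, led by mcm-5 (293.37). Meiosis and recombination genes had 7 of 11, led by smc-4, a condensin gene (911.79, 89.1% covered), and him-18 (894.99). Of the peak scoring 894.99, however, 97.3% lay in emb-5, and the other peak at him-18 scored 193.3. Of 15 oocyte and germ granule genes 10 were, led by atx-2 (664.92), nhl-2 (462.13) and mut-7 (376.67), and cgh-1, egg-1 and gsp-2 were not. Named after their values were seen, glp-1, the Notch receptor gene that keeps germline stem cells dividing, had 69.5% of its length covered (score 235.94), whereas pie-1, which keeps embryonic germ cells transcriptionally silent, was 14.1 kb from the nearest peak.

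Genes for chromatin factors included that of CEC-7 itself. Of 20 genes for chromodomain proteins, histone methylation factors and related repressors, 14 were under a peak. Of the 20, 9 were covered to 50% or more, and wdr-5.1 was counted through the tolerance alone. The highest score was at set-2, which encodes a methyltransferase of histone H3 lysine 4 (935.15, 95% covered). It was followed by met-2, a gene for H3 lysine 9 methylation, where a peak scoring 662.44 covered 1.04% of the gene, and set-16 (461, 98.9% covered). The genes cec-1 and cec-8, named like cec-7 for their chromodomains, were 1.26 and 2.75 kb from the nearest peak. Of 6 sex determination and dosage compensation genes, 5 were under a peak and 2 were covered to 50% or more. The gene dpy-27, which encodes a dosage compensation subunit, was 20.5 kb from the nearest peak.

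Genes of the tissue-restricted lists were seldom under peaks in most lists, the list of muscle structure genes being an exception by this count. Chemoreceptor genes had 0 of 34 under a peak, which allows a share of up to 8.82%. Sperm genes had 0 of 7 and nuclear hormone receptor genes 0 of 8, which allow shares of up to 42.9% and 37.5%. Neuropeptide and insulin genes had 1 of 19 and collagen and cuticle genes 1 of 18, and both of these, nlp-48 and dpy-17, had no base in a peak. Of 38 genes for ion channels, synapses and neurotransmitters 4 were under a peak, and none was covered to 50% or more. Intestinal digestion genes had 2 of 14 and histone genes 1 of 4. The list of C-type lectin, pals, MATH and F-box families had 6 of 100, and 77 of these genes lay in the left segment, where peaks were fewest.

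Muscle and homeobox genes had the highest shares among the larger restricted lists. Of 11 muscle structure genes on III 5 were under a peak, 45.5% (exact 95% interval 16.7 to 76.6%), against 6.45% of 31 on the other 4 autosomes, and beside 37.2% of all genes of III. Of the 5, 1 gene, mlc-4, which encodes a myosin light chain, was covered to 50% or more (74.8%, score 51.04), and myo-6 and mlc-7 were reached through the tolerance alone. Membership rests on the gene name, so it does not show that mlc-4 is a muscle gene. Of 18 homeobox genes 5 were, led by pal-1, a caudal-type gene whose mRNA is supplied by the mother (372.03, 76.7% covered). All 6 genes of the Hox cluster, which sets body position, lay outside peaks. The nearest peak was 4.70 kb from lin-39, 6.80 kb from egl-5, 11.0 kb from mab-5, 28.2 kb from php-3 and 31.7 kb from both ceh-13 and nob-1. Besides mlc-4 and pal-1, the restricted genes covered to 50% or more were ceh-10, bath-42, spp-1 and cpar-1, the last encoding a centromeric histone variant (420.56, wholly covered).

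**Figure D4:**
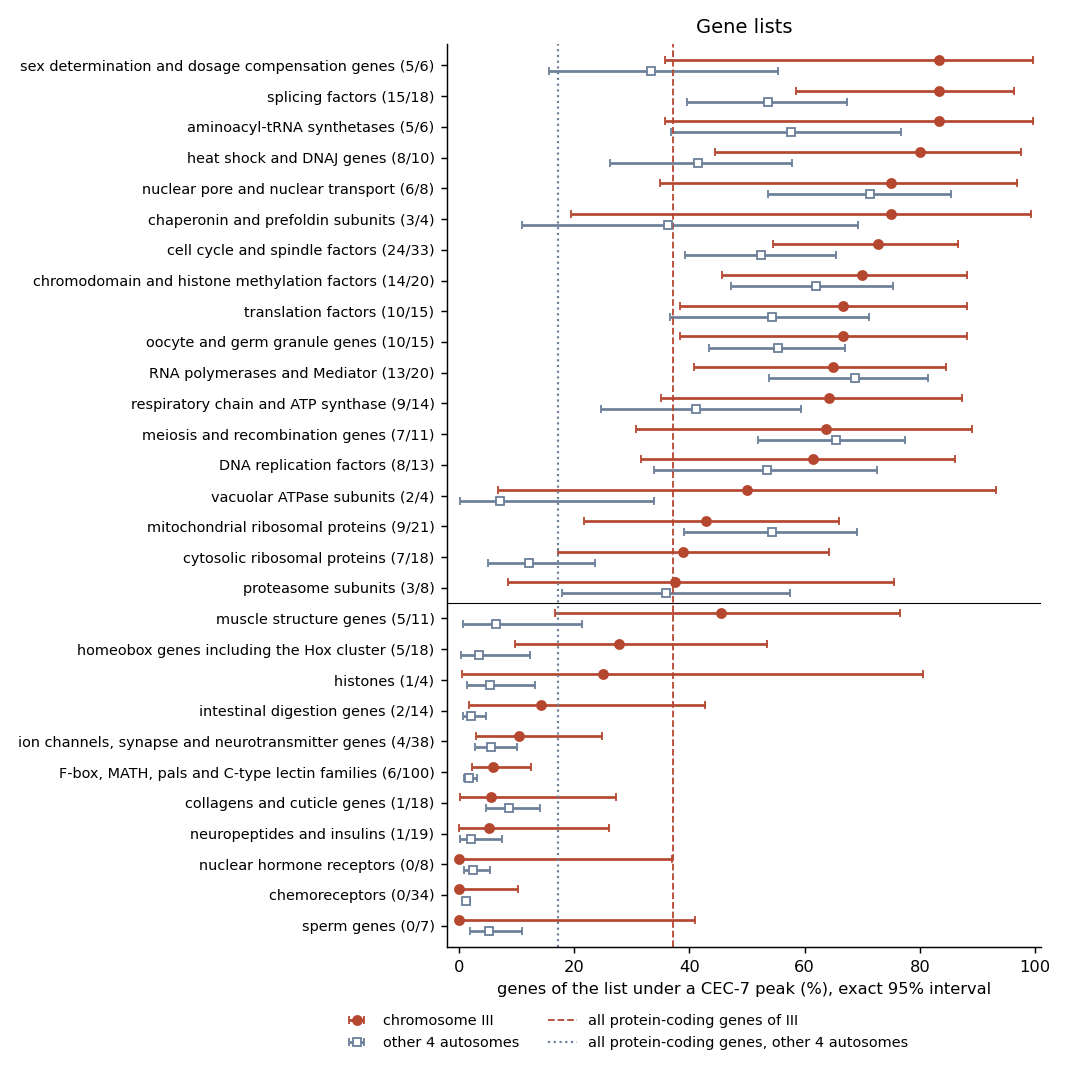
Percent of the genes of each list under a CEC-7 peak, with exact 95% intervals, on chromosome III (filled circles, with counts beside the names) and on the other 4 autosomes (open squares). Lists of machinery and germline genes stand above the horizontal line and restricted lists below it, and the vertical dashed and dotted lines mark all protein-coding genes, at 37.2% on III and 17.2% on the other 4 autosomes.

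The same order of both groups of lists was seen on the rest of the autosomes. On the other 4 autosomes 50.3% of 719 machinery and germline genes were under a peak (exact 95% interval 46.6 to 54.1%) and 2.52% of 3052 restricted genes (2.00 to 3.14%). Genes on none of the lists were under a peak in 37.6% of 2131 cases on III (35.6 to 39.7%) and in 19.2% of 10830 on the other 4 autosomes (18.4 to 19.9%). The higher share on III therefore held in all 3 groups of genes as pooled. The intervals did not overlap, and they treat genes as independent. The restricted pools differ in makeup: chemoreceptors were 34 of 270 genes on III and 1299 of 3052 on the other 4 autosomes. Single lists could differ from this: mitochondrial ribosomal proteins had 42.9% on III and 54.3% on the other 4 autosomes. Among restricted lists, chemoreceptors (0% and 1.23%), nuclear hormone receptors (0% and 2.51%), sperm genes (0% and 5.17%) and collagens (5.56% and 8.64%) were lower on III. The other restricted lists with genes on both sides were higher on III.

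Peaks of III formed dense runs, here peaks joined by gaps under 5 kb. The median gap between neighbours was 3901 bp on III and 5747 bp on the other 4 autosomes, and 55.8% of gaps on III were under 5 kb, against 47.7%. Runs of 2 peaks or more numbered 173 on III and held 598 peaks, and 165 peaks stood alone. Runs of 5 peaks or more numbered 34 on III, 2.47 per Mb, and 60 on the other 4 autosomes, 0.872 per Mb. They held 30.7% of the peaks of III (exact 95% interval 27.4 to 34.1%) and 18.7% of those of the other 4 autosomes (17 to 20.5%). A higher density of peaks shortens gaps and lengthens runs by itself, and the part of density in this difference was not tested. With gaps under 2 kb such runs held 10.1% of the peaks of III, and with gaps under 10 kb 46.5%. Of the 34 runs, 11 lay in the left, 11 in the middle and 12 in the right segment.

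**Figure D5:**
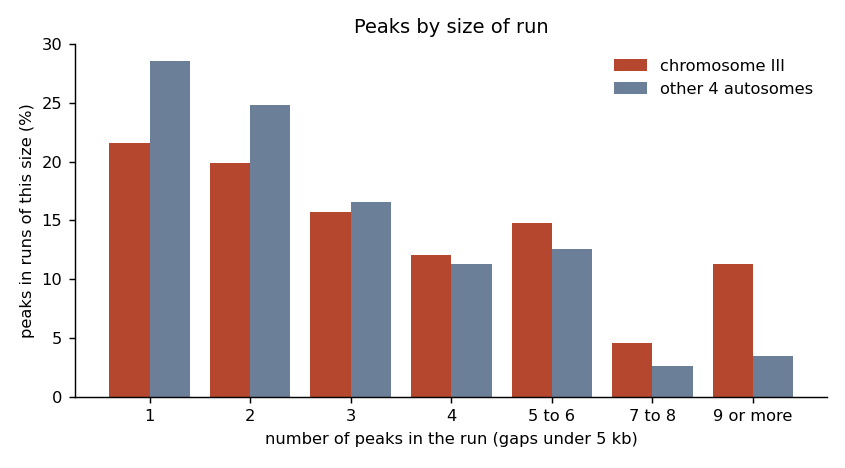
Percent of peaks by the number of peaks in their run (gaps under 5 kb), on chromosome III and on the other 4 autosomes. Single peaks make up 21.6% on III and 28.6% on the other 4 autosomes, and runs of 9 peaks or more hold 11.3% and 3.47%.

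The longest runs held genes of which nearly all were under peaks. Since gaps within a run are under 5 kb, a high share of genes under a peak follows from how runs were picked. In the longest, III 5148921 to 5213810, all 20 protein-coding genes were under a peak and 16 were covered to 50% or more. They include cid-1, the pre-mRNA splicing gene prp-19, the glycyl-tRNA synthetase gene gars-1, the histone chaperone gene hira-1 and morc-1. In the second, III 4887735 to 4947850, peaks filled 83.3% of 60.1 kb, and 21 of 22 genes were under a peak, and as many were covered to 50% or more. This run holds set-2, rpb-2, rpb-8, rars-1, nhl-2, which acts in small RNA pathways, and the mitochondrial ribosomal gene mrps-18C. In the third, III 6338245 to 6396272, all 17 genes were under a peak, among them let-716, the RNA export gene thoc-2 and the proteasome receptor gene rpn-13.

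The 3 longest stretches without a peak held 79 protein-coding genes, mostly on none of the lists. Of these genes 11 (13.9%) were on a tissue-restricted list and 1 (1.27%) on a machinery or germline list, beside 10.2% and 9.12% of all genes of III. Of the 59 genes in the 3 longest runs, 0 were on a tissue-restricted list and 9 on a machinery or germline list. The longest stretch, III 12938143 to 13147077, was 209 kb long and held 28 protein-coding genes, among them the collagen genes col-97 and col-98, the cytochrome P450 genes cyp-13A11 and cyp-13A12, and unc-25, which makes the neurotransmitter GABA. The second, III 7523940 to 7700496, held 24 genes, among them the Hox genes lin-39 and ceh-13, the fibrillin-type gene fbn-1 and the channel gene lgc-12, but also the ribosomal protein gene rpl-9. The third, III 11586114 to 11753786, held 27 genes, among them col-95, col-96 and the homeobox gene ceh-91, but also mrt-2, a DNA damage checkpoint gene. Of 762 gaps between peaks on III, 20 were longer than 100 kb.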

How the data were processed

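Per the submitters' processing notes, BWA and build ce10 were used. Per the file headers, peaks were called with MACS on WormBase WS220. Its version, settings, filters, pooling and use of the input, which set the number, width and score of peaks, were not stated in the sources used here. The deposited score column was used only for ranks and quartiles within the list. Gene names, biotypes and positions came from RefSeq's table for WBcel235, with a tolerance of 500 bp, and the last gene end stood for the length of a chromosome. The true offset between the builds was not measured, and no gene coordinate is printed. The table has no strand, so the planned counts of gene starts became overlaps of gene bodies. No sequence was at hand, so none is printed. Share intervals are exact Clopper-Pearson and density intervals exact Poisson, all at 95% and for counting error only; the limit for a count of 0 is 3 counts. Genes named were those at the 20 strongest and 5 widest peaks, in the 3 longest runs and stretches without a peak, cec-7, fem-2, and up to 3 list members with and 3 without a peak; others were named after their values were seen. The region groups, lists and rules were chosen with earlier results of these data known. Overlap and interval steps were checked on simulated data. The tools were matplotlib 3.10.9, SciPy 1.17.1 and pandas 2.3.3 with NumPy 2.4.6, run in Python 3.11.15.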

Additional observations from a re-analysis of the deposited data

How the results depend on the processing

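Of 40 alternatives, 23 were classed as the same and 16 as moved, that is outside the interval of the main value. For peak counts of III against other autosomes, only the direction and the p-value were judged. The other 1 fell on the opposite side of 1, with an interval that included 1. It was the ratio of the middle segment to the outer segments, 0.957 per protein-coding gene (0.825 to 1.11), against 1.29 per base. That ratio was 1.88 among the 50% of III peaks with the highest score and 1.82 by covered bases. The ratio of III to the other 4 autosomes stayed above 1 throughout, from 1.2 against I to 3.98 against V, with 2.13 by covered bases. Peaks in runs of 5 or more made up 10.1% with gaps under 2 kb, 46.5% with gaps under 10 kb and 9.95% in the higher-scoring peaks. Genes of III under a peak made up 32.3% with no tolerance, 41.1% with 1000 bp, 24.9% with the higher-scoring peaks and 28.5% over genes of all biotypes. Shortened peaks and shifted genes were settings chosen after seeing the data: with peaks shortened by 500 bp at both ends the share was 29.3%, and with genes shifted by 500 bp right or left it was 36.8 and 37.1%. For machinery and germline lists the share was 41.5% in the higher-scoring peaks and 57.7% with shortened peaks. For restricted lists it was 5.56% with no tolerance and 3.33% with shortened peaks. Peaks with a gene made up 99.6% with all biotypes. Gene start counts were not run, since strand was not at hand. No paired analysis was possible because the ChIP and the input are 1 library each. Depth is unknown, and sites below the caller's threshold are not in the list.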
